A study of Homo sapiens and Homo sapiens
Mus musculus and Mus musculus with 200 samples.

Results

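The sites described here are places in the human genome where, in 6 libraries of HEK293 cells, V5-tagged TWIST1 gave a peak in the 3 made with ALX4 and in none of the 3 made without it. They were chosen from ChIP-seq peak lists, made by sequencing the DNA that an antibody pulls down with its protein. Each is a V5 peak of the first library with V5-tagged TWIST1 and ALX4 that overlapped a peak in both other replicates with ALX4 by at least 1 bp, and overlapped no peak in the 3 replicates without ALX4. Of 29430 peaks in that first list, 5329 (18.1%) met the rule, and these are called ALX4-only sites below. The name refers to those 6 lists. In 16 further HEK293 lists without ALX4, each paired with a list with it, 2795 of the sites (52.45%) had no peak. Lists with another homeodomain factor in place of ALX4, or with empty plasmid, were not among the 16. A peak of untagged TWIST1 made without ALX4 from another plasmid lay over 19.4% of the sites. The number was 11775 when replicate 1 with ALX4 was left out of the rule and 8028 when replicate 2 was, and 3040 of the 5329 had a −log10 q of at least 5 in all 3 lists with ALX4. Presence and absence in those 6 lists chose the sites, so both are a description and carry no test.

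TWIST1 is a basic helix-loop-helix (bHLH) factor that binds a short sequence called an E-box, usually as a dimer with a broadly expressed E-protein. ALX4 is a homeodomain factor that recognises DNA containing TAAT. Both are made in limb mesenchyme and in the cranial neural crest, embryonic cells that form much of the facial skeleton, and mutations of either gene cause craniofacial malformations in people. In neural crest enhancers an E-box and a homeodomain site often lie at a fixed distance, an arrangement known as the Coordinator motif.

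HEK293 is a line from human embryonic kidney. It received plasmids for V5-TWIST1(WT) alone or together with ALX4-Flag, with 3 libraries each, and was harvested 24 h after transfection, so TWIST1 and ALX4 came from introduced plasmids. Further HEK293 lists, 1 library each, hold TWIST1 or V5 peaks after transfection of untagged TWIST1 from another plasmid (pCAG), of 13 altered TWIST1 proteins or of the neuronal bHLH factor NEUROD1, each with and without ALX4, of TWIST1 with PRRX1a, PRRX1b, PHOX2A or MSX1, and of the empty plasmid pUC19. The study's human cranial neural crest cells (hCNCC) were derived from H9 embryonic stem cells that were unedited (WT) or carried degradable, V5-tagged TWIST1 (TWIST1FV) or ALX1 (ALX1FV), the latter also in lines labelled ALX4-, and 500 nM of the degrader dTAGV-1 was given for 0, 3 or 24 h, with 2 libraries per condition. Both TWIST1FV replicates were the same clone, whereas the replicates of ALX1FV and of ALX1FV ALX4- were 2 different clones each, so clone and loss of ALX4 cannot be told apart where these lines are compared. RS4;11 is a lymphoblast line, with 1 TWIST1 library. The labels do not say whether replicates were separate cultures, so p-values measure the spread between these libraries, which may be technical. Peak lists carry no expression values, so no cell type could be checked against its markers.

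Examples of ALX4-only sites show an arrangement of letters that is counted below. E-boxes were searched on both strands within 100 bp of each summit as CAGATG and its reverse complement CATCTG, and as the palindromes CAGCTG and also CATATG. Homeodomain sites were searched there as the palindrome TAATTA and as TAATTG with its reverse complement CAATTA. An E-box and a homeodomain site with 4 bases between them are called the composite motif. The 8 strongest sites with it, named by the nearest protein-coding start site, are printed 5′ to 3′ (hg38) on the strand where the E-box comes first, with the E-box and the homeodomain site in capitals. They lie at chr17:72376648-72376687 (minus strand, SOX9), chr2:27215197-27215236 (plus, CAD), chr19:29603451-29603490 (plus, POP4), chr1:212650554-212650593 (plus, GARIN4), chr11:32309970-32310009 (minus, WT1), chr7:3212784-3212823 (minus, SDK1), chr12:89936792-89936831 (plus, ATP2B1) and chr2:25368799-25368838 (minus, DNMT3A).
SOX9: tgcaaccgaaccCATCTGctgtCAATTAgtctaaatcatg
CAD: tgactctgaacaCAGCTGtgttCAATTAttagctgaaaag
POP4: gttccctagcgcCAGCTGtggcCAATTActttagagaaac
GARIN4: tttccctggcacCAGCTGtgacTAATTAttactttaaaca
WT1: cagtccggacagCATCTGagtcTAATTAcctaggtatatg
SDK1: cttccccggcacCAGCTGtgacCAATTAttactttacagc
ATP2B1: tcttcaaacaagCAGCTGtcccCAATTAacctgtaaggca
DNMT3A: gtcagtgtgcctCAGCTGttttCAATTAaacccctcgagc

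The composite motif was rare, and its share was higher at ALX4-only sites than in the sets they were compared with. It lay at 103 of 5329 sites (1.93%, 95% Wilson interval 1.60 to 2.34, which here and below covers counting error only). At the 6400 sites found in all 6 lists, called shared sites, it lay at 34 (0.531%, 0.3804 to 0.741). Between them lay the 6290 sites in all 3 lists with ALX4 and in 1 or 2 without, with 75 (1.19%, 0.952 to 1.49). It lay at 0 of the 1457 sites found without ALX4 only, which allows a share of up to 0.263%. Over all 29430 peaks the share was 0.860%, and in windows 1000 bp from the summits of ALX4-only sites it was 5 of 10658 (0.0469%). Within 50 bp of the summit the share at ALX4-only sites was 1.126%, and with TAAT alone as the homeodomain site it was 3.45%, against 1.62% of shared sites.

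The spacing of 4 bases stood alone among the 21 gaps counted, from 0 to 20. At ALX4-only sites the next most frequent gaps were 0, with 20 sites, and 15, with 16. The same gap of 4 led at shared sites, with 34 sites, followed by a gap of 18 with 10. The letters inside the motif varied. The E-box read CAGCTG in 46 of the 103 sites, CATCTG in 28, CAGATG in 22 and CATATG in 7, and the homeodomain site read CAATTA in 50, TAATTA in 42 and TAATTG in 11. The 4 bases between them took 65 different forms. The motif lay a median of 36 bp from the summit.

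**Figure D1:**
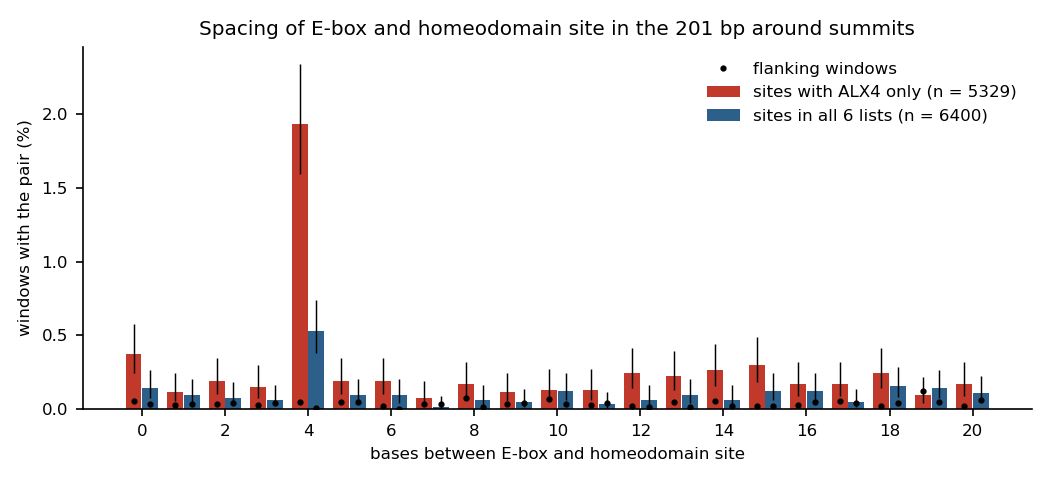
Share of windows reaching 100 bp either side of the summit with an E-box and a homeodomain site (y axis, %) against the bases between them (x axis), for ALX4-only sites and sites in all 6 lists; error bars are 95% Wilson intervals and black dots are windows 1000 bp from the summit. A gap of 4 bases reached 1.93% at ALX4-only sites, above every other gap in either set.

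Each motif taken alone gave a different picture. An E-box lay at 46.7% of ALX4-only sites, 50.1% of shared sites and 43.4% of all peaks. A homeodomain site lay at 29.5% of ALX4-only sites, 13.4% of shared sites, 3.64% of sites without ALX4 only and 19.3% of all peaks. Sites in 1 or 2 lists without ALX4 had one at 19.8%. Windows 1000 bp away held one at 18.3% (ALX4-only) and 13.3% (shared), so it was more frequent at the summits than beside them at ALX4-only sites, and about as frequent at shared ones. Base composition moved with these counts: the median GC content was 43.8% at ALX4-only sites and 51.2% at shared sites, and its part in the difference was not tested. For the 1686 6-letter words found in the windows of at least 100 ALX4-only sites, the share at summits over that at flanks was set against the same ratio at shared sites. Words rarer at ALX4-only sites were left out, however frequent at shared sites. TAATTA came highest (1.801), narrowly above AATTAA (1.797). By the ratio at ALX4-only sites alone, TAATTA ranked 27. It lay at 13.5% of ALX4-only summits and 8.27% of their flanks, and at 5.63% of shared summits and 6.19% of their flanks. Neither an E-box nor a homeodomain site was found at 36.8% of ALX4-only sites. A pair of E-boxes 5 bases apart, which marked 4.26% of sites without ALX4 only, lay at 0.1501% of ALX4-only sites and 0.609% of shared sites.

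Some composite motifs were alike beyond the motif itself. Comparing the 12 bases on either side in all 5253 pairs of the 103 composites, the median pair had 6 of 24 bases the same, but 19 sites fell into 2 groups linked by pairs with at least 16 the same. The larger group had 15 sites on 8 chromosomes and includes GARIN4 and SDK1 above. Further members are shown to make the likeness visible, at chr6:91183970-91184009 (minus, MAP3K7) and chr6:48835960-48835999 (plus, MMUT). The smaller group had 4 sites on 3 chromosomes, among them chr13:95367636-95367675 (plus, CLDN10) and chr21:29193186-29193225 (minus, BACH1).
MAP3K7: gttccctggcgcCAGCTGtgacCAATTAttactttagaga
MMUT: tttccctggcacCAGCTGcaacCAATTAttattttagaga
CLDN10: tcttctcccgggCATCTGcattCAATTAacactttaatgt
BACH1: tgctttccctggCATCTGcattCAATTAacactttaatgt

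In the larger group 73.6% of the 12 bases on either side were the same between pairs on average, and over 100 bases this fell to 43.8%. The same values in the smaller group were 83.3% and 51.8%. These sites were also occupied in neural crest cells: 12 of 15 and 4 of 4 overlapped a TWIST1 peak in both WT hCNCC libraries at 0 h, against 61 of the 84 other composites. No repeat annotation was used, so the origin of this likeness was not tested.

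The strength of an ALX4-only site is given by the peak caller's −log10 q and fold enrichment, which are the authors' values. The median −log10 q was 7.57, 9.79 and 13.3 in replicates 1, 2 and 3, with a median fold enrichment of 5.06, 6.19 and 6.48. For shared sites the medians were 8.28, 12.4 and 23.3, and 4.81, 6.54 and 7.81. The lists themselves differed in length, with 29430, 41369 and 65005 peaks with ALX4 and 30471, 22465 and 56014 without. Peak lists give no read depth. ALX4-only sites had a median width of 633 bp, and the nearest peak of any list without ALX4 lay a median of 9133 bp away. It lay at least 10 kb away for 2546 of them and under 500 bp for 282.

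The sites were ranked by their lowest −log10 q over the 3 lists with ALX4. The composite motif lay at 1.13% of the weakest of 4 equal bands of them, then at 1.43%, 1.88% and 3.30% up to the strongest. Shared sites in the same bands of strength had it at 0.236%, 0.147%, 0.134% and 0.932%. An E-box lay at 36.3% of the weakest and 59.6% of the strongest ALX4-only sites. The 2 weakest sites, at chr6:34324875-34325359 near NUDT3 and chr7:66033632-66034067 near ASL, had a −log10 q of 1.308 in replicate 1. Just outside the rule lay 6429 peaks that failed 1 condition. The strongest of these were an intronic peak at chr10:59625308-59626624 near SLC16A9, with a lowest −log10 q of 128.2 with ALX4 and 14.28 in the last of the lists without, and chr5:93569053-93570179 near NR2F1, with 92.25 and 13.11.

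**Figure D2:**
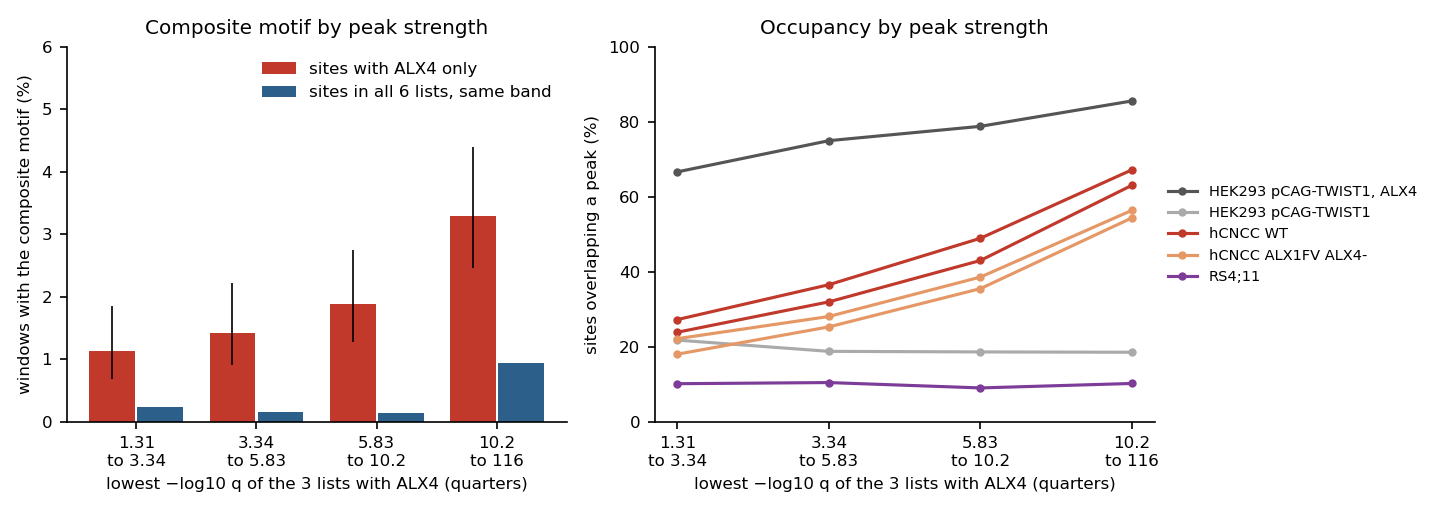
Left: share of windows with the composite motif (y axis, %) by band of peak strength (x axis, lowest −log10 q of the 3 lists with ALX4), with 95% Wilson intervals for the ALX4-only sites. Right: share of ALX4-only sites overlapping a peak of other lists, 1 line per library. The motif's share goes from 1.13% to 3.30% from the weakest to the strongest band.

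ALX4-only sites lay away from promoters. Only 262 (4.92%) had their summit within 1000 bp of a start site, against 41.1% of shared sites, while 3486 (65.4%) lay in introns, 1331 (24.98%) between genes and 25 in coding exons (GENCODE v44). The median distance to the nearest protein-coding start site was 31430 bp, against 2983 bp for shared sites and 17230 bp for all peaks. The motif difference held among distal summits, where the composite lay at 1.99% of ALX4-only, 0.716% of shared and 0 of 1177 sites without ALX4 only.

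The sites were spread over many genes. Of 19676 protein-coding genes, 3369 were the nearest to at least 1 ALX4-only site, 2310 of them to exactly 1 and 106 to 5 or more. The most lay nearest AUTS2, a neurodevelopmental regulator (20 sites, 18 of them within the gene), and ZNF608, a zinc finger gene (16). The nuclear receptor gene NR2F2 followed with 11 and its paralogue NR2F1 with 10, as did the ephrin gene EFNA5, PHLPP1 and TENM3 with 10 each. Peaks of the whole list near these genes were also many, 95 for AUTS2, 59 for ZNF608, 45 for NR2F2, 41 for EFNA5 and 18 for NR2F1.

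By gene group, the share of ALX4-only sites stayed close to the share of all peaks. Axon guidance and neuronal genes, which hold guidance cues and their receptors, had 115 sites (2.16%, against 1.57% of all peaks). Neural crest and mesenchyme transcription factors had 104 (1.95% against 1.69%) and covered 30 of the 44 genes on the list. BMP, FGF, WNT, hedgehog and PDGF signalling had 75 (1.41% against 1.11%), and collagens, matrix and adhesion genes had 50 (0.938% against 0.809%). Craniofacial homeodomain factors had 37 (0.694% against 0.591%) at 14 of 32 genes. The lists for bHLH factors (23 sites, 0.432% against 0.452%) and embryonic kidney regulators (21, 0.394% against 0.435%) were at or below the share of all peaks. A nearest gene is not shown to be a target.

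The strongest site lay between genes at chr10:118668842-118670083, 73958 bp upstream of PRLHR, which encodes the prolactin-releasing hormone receptor. Its −log10 q was 126.0, 116.0 and 179.2 in the 3 lists with ALX4. The second lay at chr1:219587676-219588859 near ZC3H11B (103.8, 149.1 and 166.1). The third, at chr17:72376305-72377327, lay 255645 bp downstream of SOX9, a transcription factor of neural crest and cartilage, in an intron of a non-protein-coding gene. Its −log10 q was 94.49, 129.7 and 161.6 and its fold enrichment 19.5, 28.77 and 27.25. The summit windows near PRLHR and SOX9 are printed to show that strong sites differ in layout, at chr10:118669531-118669681 and chr17:72376590-72376740 (both plus strand, hg38), with E-boxes, homeodomain sites and TAAT cores in capitals. The PRLHR window has TAAT directly followed by the E-box CAGATG and no composite motif, whereas the SOX9 window holds the composite printed above, read here from the other strand.
PRLHR: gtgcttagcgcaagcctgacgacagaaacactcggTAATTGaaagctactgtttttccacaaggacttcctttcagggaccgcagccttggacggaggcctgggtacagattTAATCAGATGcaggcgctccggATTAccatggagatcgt
SOX9: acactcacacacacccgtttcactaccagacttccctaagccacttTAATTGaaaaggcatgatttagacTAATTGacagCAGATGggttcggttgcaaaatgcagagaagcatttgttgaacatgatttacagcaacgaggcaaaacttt

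Introns held 7 of the 10 strongest sites, at SH3TC2 (chr5:149005268-149006173), VCAM1 (chr1:100721234-100722410), PLEKHA6 (chr1:204280244-204281403) and others. VCAM1 encodes a cell adhesion molecule, and its site lay 1936 bp past the start site. The eighth site, at chr7:18846172-18847441, had TWIST1 itself as the nearest protein-coding start site, 270728 bp away, and sat in an intron of HDAC9. The tenth, chr2:27214630-27215698 in an intron of ATRAID near CAD, a pyrimidine synthesis gene, carried the composite motif. All 10 overlapped a peak in both WT hCNCC libraries and in the pCAG list with ALX4, and 2 overlapped one in the pCAG list without it. Of the 100 strongest sites, 92 were in both WT hCNCC lists and 97 in the pCAG list with ALX4, against 18 in the pCAG list without it.

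Strong sites also lay near developmental regulators on the gene lists. MEIS1 and PAX7, homeodomain genes, had sites at chr2:66170543-66172271 and chr1:18640084-18641421. EBF3, a mesenchyme transcription factor gene, had one in its own intron at chr10:129942833-129944055. BAMBI, which encodes a BMP pseudoreceptor, had one at chr10:28832563-28833944, and the Wnt receptor gene FZD1 at chr7:91515850-91516497. PLXNA4, a semaphorin receptor gene, and EFNA5 had intronic sites at chr7:132160356-132161249 and chr5:107393920-107395008. Those near the kidney regulators EYA1 and WT1 lay at chr8:71216788-71217920 and chr11:32309727-32310497. Among matrix and adhesion genes the strongest lay near PCDH17 (chr13:58499005-58499557) and in CTNNA2 (chr2:79876417-79876985), and among bHLH genes, after TWIST1, near NEUROD2 (chr17:39598211-39599012).

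HEK293 lists that the rule did not use were then read for each site. With untagged TWIST1 from pCAG, 19.4% of ALX4-only sites overlapped a peak without ALX4 and 76.5% with it, while shared sites went from 93.7% to 89.1%. With V5-TWIST1 and the TWIST1 antibody, the shares were 3.64% and 37.2%, and 69.2% and 53.5% at shared sites. Each value is 1 library, so these pairs have no test. NEUROD1 was found at 0.6005% of ALX4-only sites without ALX4 and 1.13% with it, although it was found at 23.5% and 18.5% of shared sites. After empty plasmid 4 of the sites (0.0751%) overlapped a V5 peak.

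The 13 altered TWIST1 proteins, named for substitutions or for other bHLH factors, gave 13 further pairs of lists. Occupancy of ALX4-only sites was higher with ALX4 for 12 of 13, by a mean of 16.5 percentage points (SD 20.6, n = 13; two-sided exact sign-flip permutation test over variants, p = 0.002197). Over shared sites the mean change was 4.69 points (SD 12.97, p = 0.2114 in the same exact test), and over sites without ALX4 only it was -14.5 points (exact p = 0.0894). The change at ALX4-only sites exceeded that at shared sites by 11.8 points, in 8 of 13 variants (exact p = 0.0872, a comparison added after the values were seen), so the difference between the sets did not pass the threshold. Without L138F and L138Y the mean was 8.80 points, and with the 2000 strongest peaks of each list it was 1.21 points (exact p = 0.008789 and 0.0004883).

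The variants differed widely. L138F went from 9.46% to 78.2% and L138Y from 11.7% to 60.6%, the largest changes. HAND2ins (5.69% to 25.6%), NEUROG2ins (10.6% to 28.5%), TAL1ins (13.3% to 30.9%) and TAL1loop (5.07% to 20.9%) were next. For NEUROD1R the shares were 2.97% and 13.1%, for HAND2loop 4.35% and 12.6%, and for NEUROD1ins 2.42% and 9.65%. Values were low on both sides for NEUROD1M (0.920% and 3.04%) and NEUROD1 loop (2.402% and 3.12%). NEUROG2loop was at 20.4% without and 20.8% with ALX4, and NEUROD1L alone was lower with it (7.09% and 3.88%). Its list with ALX4 was the shorter, at 8559 peaks against 26878, and its share of shared sites was lower too (57.8% against 82.4%). With both NEUROD1L lists cut to their 8559 strongest peaks the direction turned, to 1.16% without and 3.88% with ALX4, and with every pair cut to its shorter list all 13 variants were higher with ALX4. Shared sites turned for NEUROD1L too, to 47.7% and 57.8%. Under these cuts shared sites were lower with ALX4 only for L138F (-0.0156 points) and NEUROD1 loop (-1.89 points). Each of these is 1 library against 1, without a replicate check.

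**Figure D3:**
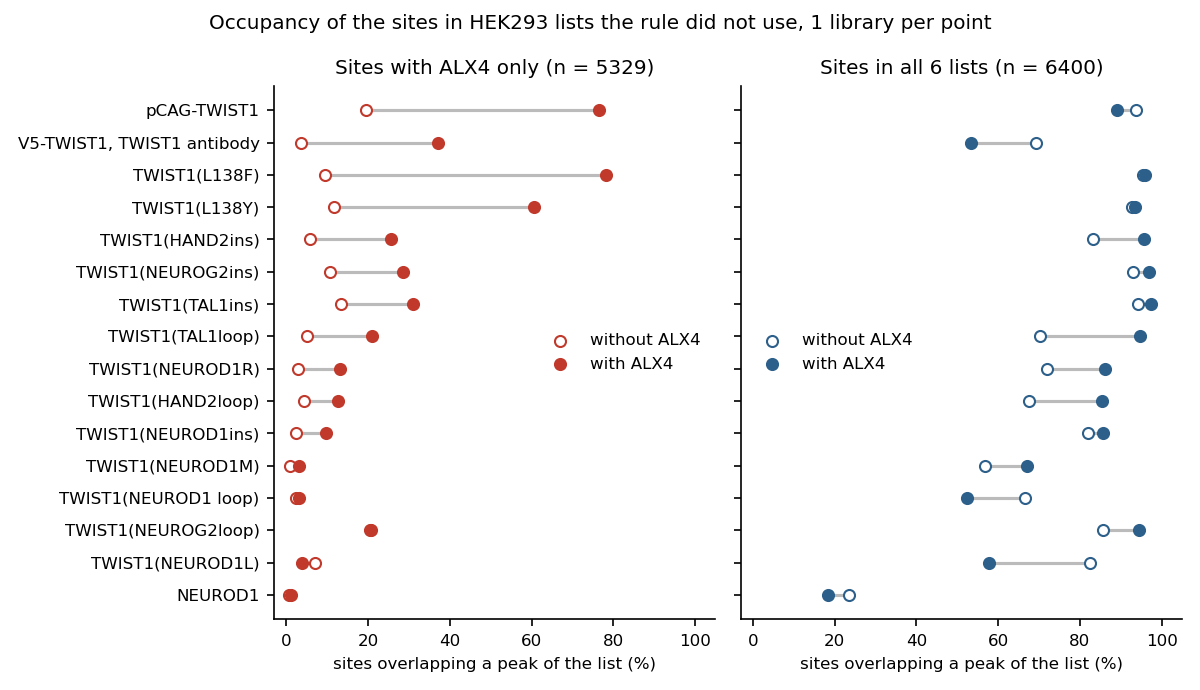
Share of ALX4-only sites (left) and of sites in all 6 lists (right) that overlap a peak of each HEK293 list (x axis, %), without ALX4 (open) and with ALX4 (filled), 1 library per point. ALX4-only sites move right for all pairs except NEUROD1L, whose lists differ in length (26878 peaks without and 8559 with ALX4), and least for NEUROG2loop, NEUROD1 loop and NEUROD1; shared sites move both ways.

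Counted over the 16 pairs of lists made with and without ALX4, 4664 sites (87.5%) were in more lists with ALX4 than without. The median site was in 4 lists with ALX4 and 0 without. Of all sites, 2795 were in none of the 16 lists without ALX4, and 117 were in none of the 16 with it. The broadest sites lay near GULP1 (chr2:188529434-188530313), ETV1 (chr7:13466731-13467528), DACT1 (chr14:58711965-58712781) and the collagen gene COL1A2 (chr7:94246849-94247766), each in 15 lists with ALX4 and 0 without, and in ATE1 (chr10:121865244-121866481), with 15 and 1. PAX7 was an exception among strong sites, with 10 and 4. Composite and other sites differed in which lists held them: 98 of 103 were in the L138F list with ALX4 and 91 in that of L138Y (88.3%), against 77.8% and 60.1% of the other sites. The shares were 11.7% against 21.1% in the TAL1loop list with ALX4 and 8.74% against 21.03% in the NEUROG2loop list with ALX4. With pCAG and ALX4 they were at 64.1%, against 76.8%. These shares describe single libraries.

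The other homeodomain partners were compared through the TWIST1 antibody lists, which differ in length. PRRX1a and PRRX1b, isoforms of a mesenchymal homeodomain factor, placed a TWIST1 peak at 17.4% and 29.4% of ALX4-only sites, PHOX2A, a factor of autonomic neurons, at 10.0%, and MSX1, a craniofacial homeodomain factor, at 2.61%. TWIST1 alone was at 3.64% and ALX4 at 37.2%. Over all 29430 peaks the shares were 25.2% with PRRX1a, 33.5% with PRRX1b, 16.2% with PHOX2A and 5.65% with MSX1. They were 25.8% for TWIST1 alone and 30.6% with ALX4. At shared sites the 4 partners reached 52.3%, 60.9%, 42.9% and 15.4%. Each of the 4 thus covered ALX4-only sites less often than all peaks, whereas ALX4 covered them more often. The lists held 12288, 17317, 7023 and 2498 peaks for the 4 partners, 12505 with ALX4 and 15395 alone. Cut to their 7023 strongest peaks, the lists reached 1.09% alone, 26.8% with ALX4, 11.4% with PRRX1a, 15.4% with PRRX1b and 10.0% with PHOX2A. Cut to 2498, they reached 0.113%, 9.53%, 3.98%, 5.10% and 4.43%, against 2.61% with MSX1. All 4 partners were thus above TWIST1 alone at matched length, and ALX4 was above them all. The rule chose sites with a V5-TWIST1 peak with ALX4 and none without it. The low share of TWIST1 alone and the high share with ALX4 thus lean on that choice, and the order carries no test.

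The sites taken with the other partners were in part those taken with ALX4 in the same antibody series. Of the 928 ALX4-only sites in the PRRX1a list, 517 (55.7%) were also in the ALX4 list, which is 26.1% of the sites in that list. For PRRX1b the overlap was 847 (54.1% and 42.7%), for PHOX2A 344 (64.5% and 17.4%) and for MSX1 87 (62.6% and 4.39%). With PHOX2A a TWIST1 peak lay at 32.0% of composite sites and 9.57% of the others, and with MSX1 at 10.7% and 2.45%. For PRRX1b these shares were 40.78% and 29.18%. With PRRX1a they were close to each other, at 18.45% and 17.39%.

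In hCNCC, where TWIST1 and its partners are made by the cells, TWIST1 peaks of WT cells at 0 h covered 45.0% and 40.5% of ALX4-only sites in the 2 libraries, and 2060 sites (38.7%) were in both. These shares lay between those of all 29430 peaks, at 37.4% and 33.4%, and of shared sites, at 54.8% and 49.9%. A further library with the same antibody gave 42.6%, and WT cells after 3 h of dTAGV-1, which have no degradable protein, gave 43.7% and 42.2%. In ALX1FV ALX4- cells the shares were 36.3% and 33.3%. The means were 42.8 ± 3.19% and 34.8 ± 2.12% (SD, n = 2 each) and the libraries did not overlap, but the two-sided exact permutation test gave p = 0.3333, the smallest that 2 against 2 allows. With the 20000 strongest peaks of each list the difference was -4.46 points in place of -7.94, and with the 2000 strongest -1.39 (exact p = 0.3333 for both). Over all 29430 peaks the difference was -2.73 points and over shared sites 1.64 points (exact p = 0.667 for both). The groups also differ in the ALX1 tag, in clones and in mouse chromatin, which the labels give as added to the WT libraries and not to the ALX1FV ALX4- ones, so these and the loss of ALX4 cannot be told apart. The further WT library, at 42.6%, had no mouse chromatin.

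The sites bound in both WT libraries were mostly bound without ALX4 too. Of the 2060, 76.3% were in both ALX1FV ALX4- lists and 11.8% in neither. For shared sites these were 85.0% and 4.603%. Composite sites were in both WT lists for 77 of 103 (74.8%), against 37.9% of other sites. The share bound went up with strength in HEK293: the first WT library covered 27.3%, 36.6%, 49.0% and 67.2% from the weakest to the strongest band.

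**Figure D4:**
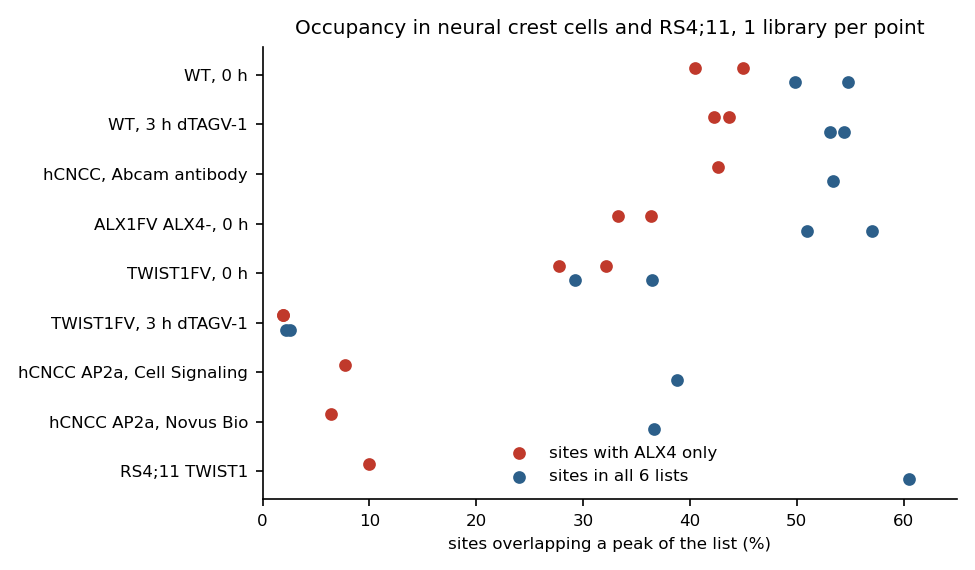
Share of ALX4-only sites and of sites in all 6 HEK293 lists that overlap a peak of each hCNCC or RS4;11 list (x axis, %), 1 library per point. TWIST1 lists of WT hCNCC lie at 40.5% to 45.0% for ALX4-only sites, AP2a lists at 6.38% and 7.75%, and RS4;11 at 9.95%.

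After 3 h of TWIST1 degradation few of the sites overlapped a TWIST1 peak, and the whole lists were short. TWIST1FV cells covered 32.1% and 27.7% of ALX4-only sites at 0 h and 1.91% and 1.90% after 3 h, while the lists went from 33479 and 25034 peaks to 835 and 739. AP2a, a neural crest transcription factor, was at 7.75% and 6.38% of ALX4-only sites with 2 antibodies and at 38.8% and 36.6% of shared sites. V5 peaks of ALX1, a paralogue of ALX4, covered 3.83% and 1.41% of ALX4-only sites in ALX1FV cells and 2.80% and 3.27% in ALX1FV ALX4- cells. In ALX1FV cells they covered 1.56% and 0.531% of shared sites. These V5 lists were short, with 1389 and 376 peaks in ALX1FV and 920 and 1116 in ALX1FV ALX4-, which limits the shares they can reach. In RS4;11 cells TWIST1 was at 530 of the sites (9.95%), at 60.5% of shared sites and at 43.6% of sites without ALX4 only. The 530 held the composite motif at 2.08%, and the rest at 1.92%.

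Acetylation of histone H3 at lysine 27 (H3K27ac), a mark of active enhancers and promoters, was counted by the authors over 213151 hCNCC regions of open chromatin (ATAC-seq peaks). Library totals were 5940615 to 9173063 counts. ALX4-only sites overlapped such a region in 3190 cases (59.9%), touching 3398 regions, and shared sites in 86.3%. The share was 94.9% for ALX4-only sites bound in both WT hCNCC lists, 32.4% for those in neither and 79.6% for composite sites. The other sites have no H3K27ac value. Tests were edgeR's quasi-likelihood test over all regions that passed the filter on low counts, with Benjamini-Hochberg adjustment and a false discovery rate of 0.05. The 2 dTAGV-1 times of TWIST1FV share their 0 h libraries.

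After 3 h of TWIST1 degradation, acetylation fell at 524 of 2679 tested regions over ALX4-only sites (19.6%) and rose at 11 (0.411%). Over all 123361 tested regions 4.70% fell and 1.24% rose. The median log2 fold change was -0.57 at ALX4-only sites and 0.02 over all regions, and at regions over shared sites 4.41% fell. Without the first TWIST1FV 0 h library the number called in either direction was 349 in place of 535. After 24 h, 831 regions fell (31.0%) and 69 rose (2.58%), against 9.70% and 4.49% of all regions and 9.80% falling at shared sites. The median was -0.69. The median level over ALX4-only regions is given in CPM, counts scaled to library totals adjusted by edgeR's TMM method. It was 5.21 and 4.75 CPM at 0 h, 3.226 and 3.195 at 3 h and 2.91 and 2.71 at 24 h. Both libraries of each later time thus lay below both at 0 h.

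WT cells given the same compound had no called region. Of 2826 tested regions over ALX4-only sites, 0 fell or rose at 3 h and 0 at 24 h, as did 0% of all regions in either direction. An unadjusted p under 0.05 in edgeR was found at 89 and 117 of the 2826, against 4198 and 4359 of all 120860 regions. The difference between the lines was tested directly. The 3 h change of TWIST1FV was lower than that of WT at 391 of 3022 regions (12.9%; 2.66% of all regions) and higher at 8 (0.265%; 0.363%). The 24 h change was lower at 678 (22.4%; 5.95%) and higher at 34 (1.13%; 1.58%). This fit compares libraries of 2 count tables.

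The regions that fell lay almost all over sites bound in hCNCC, 522 of the 524 at 3 h, where 1880 of the 2679 tested regions lay over such sites. This was general to the data. Of all 5795 regions that fell at 3 h, 4918 were bound in both WT libraries without an ALX4-only site, and 522 with one. Regions over ALX4-only sites in both WT TWIST1 lists fell in 27.8% of cases at 3 h and 43.8% at 24 h, whereas those in neither fell in 0 and 4 of 580. Among distal regions bound in both WT libraries, 28.7% fell at 3 h where an ALX4-only site lay, 15.8% where none did and 14.9% where a shared site lay. At 24 h these shares were 44.9%, 31.9% and 29.4%. From the weakest to the strongest HEK293 band the share that fell at 3 h was 11.4%, 12.4%, 19.9% and 28.1%, and over the 100 strongest sites 45 of 100 regions fell at 3 h and 61 of 100 at 24 h. Of 78 regions with the composite motif, 17 fell at 3 h and 31 at 24 h.

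Among the 10 strongest sites, the region near RPS23, a ribosomal protein gene, had 179.6 and 181.4 CPM at 0 h, 50.14 and 60.99 at 3 h and 22.68 and 22.73 at 24 h. It fell by 1.70 on the log2 scale at 3 h (edgeR adjusted p = 1.355e-06) and by 2.99 at 24 h (adjusted p = 3.342e-10). The PRLHR region fell at both times (log2 fold change -1.80 and -1.98), from 21.13 and 20.86 CPM to 7.037 and 5.001 and then 6.55 and 4.059. ZC3H11B, SH3TC2 and VCAM1 regions also fell at both times, and those near PLEKHA6 and CAD at 24 h. The 24 h call of SH3TC2 (edgeR adjusted p = 0.0246) was lost when scaling by library size only (0.0679), with DESeq2 (0.05117), without the first 0 h library (0.3088) and without the second 24 h library (0.26). The 3 h call of VCAM1 was lost without the first 0 h library (edgeR adjusted p = 0.0677), and the 24 h call of CAD without that library or the second 24 h one (0.1295 and 0.1358). The SOX9 region did not pass at either time (log2 fold change -0.23, edgeR adjusted p = 0.7076, and -0.44, adjusted p = 0.30), with 40.42 and 31.11 CPM at 0 h and 38.27 and 22.78 at 3 h. Nor did the ZNF608 region, at under 4 CPM throughout, or the TWIST1 region, at 22.66 and 20.49 at 0 h and 33.24 and 31.93 at 24 h (log2 fold change 0.60, edgeR adjusted p = 0.0657). Of the further composite sites, the region near CAT, the catalase gene, fell at both times (log2 fold change -1.502 and -2.804), and those near CLDN10 and SDK1 fell at 24 h. The SDK1 call was lost without either 0 h library or the second 24 h library, with scaling by library size only and with no filter on low counts (edgeR adjusted p = 0.0617 to 0.3459).

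The largest falls were named by size. At 3 h the region near SLC30A10 (chr1:219791727-219792227), a manganese exporter gene, went from 94.17 and 71.46 CPM to 7.037 and 6.252, a log2 fold change of -3.64 (SE 0.234, edgeR adjusted p = 4.93e-08). HRH1, a histamine receptor gene (-3.45, with the call lost without the second 0 h library, edgeR adjusted p = 0.05384), and TRABD2B, a Wnt inhibitor gene (-3.14), followed. At 24 h the region near CITED1, a transcriptional co-regulator (chrX:72314791-72315291), had 0.2426 and 0.2706 CPM against 10.41 and 9.869 at 0 h (log2 fold change -5.22). Near SPDYE21 the values were 143.2 and 110.1 at 0 h and 6.793 and 4.329 at 24 h (-4.50), and near FGF23, a phosphate hormone gene, the log2 fold change was -4.48. Regions that rose were few. The region near CDK15, a cyclin-dependent kinase gene (chr2:201887678-201888448), had 10.11 and 7.496 CPM at 0 h, 21.85 and 25.56 at 3 h and 58.1 and 55.47 at 24 h (log2 fold change 1.44 and 2.70). The region near ETNK1 started near 0, with 0.3062 and 0.4997 CPM at 0 h and 2.346 and 2.223 at 3 h, and its 3 h call was lost without any 1 of these 4 libraries (edgeR adjusted p = 0.08902 to 0.2147). The gene lists are read against 4.70% of all tested regions and 19.6% of all ALX4-only regions that fell at 3 h. Over the lists 6 of 14 homeodomain regions fell at 3 h, 20 of 68 axon and neuronal, 14 of 61 neural crest, 8 of 44 signalling, 4 of 16 bHLH, 5 of 30 matrix and 3 of 13 kidney regions, and 0 of any list rose.

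ALX4 was compared through the ALX1FV lines at 0 h. Acetylation was lower in ALX1FV ALX4- than in ALX1FV at 233 of 2891 regions over ALX4-only sites (8.06%) and higher at 9 (0.311%), against 1.85% and 0.723% of all 139815 regions and 1.64% lower at shared sites. The median log2 fold change was -0.29. The number called in either direction, 242, was 58 without the first ALX1FV ALX4- library, 128 without the second and 129 without the second ALX1FV library. The median levels were 4.88 and 4.49 CPM in ALX1FV and 3.51 and 3.76 in ALX1FV ALX4-, without overlap. Distal regions bound in both WT TWIST1 lists were lower in 11.9% of cases with an ALX4-only site, 6.45% without and 4.74% with a shared site. Composite regions were lower in 4 of 78.

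Single regions varied in this contrast. The region near RPS23 had 170.2 and 196.1 CPM in ALX1FV and 133.6 and 132.1 in ALX1FV ALX4- (log2 fold change -0.46, edgeR adjusted p = 0.01494), and the one near PLEKHA6 8.372 and 11.52 against 2.572 and 3.755 (-1.66, adjusted p = 0.0274). Both calls were lost without the second ALX1FV library or either ALX1FV ALX4- library (edgeR adjusted p = 0.09398 to 0.3374). The largest were near LCTL (chr15:66595938-66596438), with 12.73 and 20.2 against 0.9354 and 2.888 (-3.14), ERO1A, an endoplasmic reticulum oxidase gene (-3.13), and FRMPD1 (-3.11). Higher regions lay near PHLPP1, a phosphatase gene (1.96), PRKAR1A, a protein kinase A subunit gene (1.92), and GMCL1, whose 2 ALX1FV libraries were at 0 and whose ALX1FV ALX4- libraries had 0.9354 and 2.311 CPM. The calls of ERO1A, PHLPP1 and PRKAR1A were lost when any 1 of the 4 libraries was left out (edgeR adjusted p = 0.06334 to 0.3639), and that of GMCL1 in 3 of 4 cases (0.08901 to 0.1552). By list, beside 1.85% of all regions and 8.06% of ALX4-only regions, 7 of 70 axon and neuronal, 5 of 65 neural crest, 2 of 46 signalling, 2 of 16 bHLH, 1 of 15 kidney, 0 of 15 homeodomain and 0 of 32 matrix regions were lower.

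Degrading ALX1 for 24 h changed few of these regions. In ALX1FV ALX4- cells 196 of 2891 had an unadjusted p under 0.05 in edgeR, against 5349 of all 139815 regions. After adjustment 4 of the 2891 fell (0.138%) and 0 rose, against 0.0129% and 0% of all regions. They lay near YAP1, a Hippo pathway co-activator (20.81 and 23.68 CPM at 0 h, 8.671 and 8.614 at 24 h, log2 fold change -1.36), LAMA3, a laminin gene (-1.34), KCNJ2, a potassium channel gene (-1.001), and ZFP36L2, an mRNA decay factor gene (-0.89), the last named after its value was seen. The count was 0 without the second 0 h library or either 24 h library, 7 with the replicate number as a block (0.0350% of all regions were lower), 7 with DESeq2 (0.0308%) and 50 with each clone as a block (1.73%, against 0.290% lower and 0.0136% higher of all regions), a fit added after the data were seen. In ALX1FV cells 0 regions fell or rose at 24 h, as did 0% of all regions in either direction, and DESeq2 called 0. An unadjusted p under 0.05 in edgeR was found at 85, against 4451 of all 139815 regions. The clone block called 0 of the ALX4-only regions, against 0.000715% of all regions lower. The difference between the genotypes' 24 h changes was called at 0 regions in either direction, against 0% of all regions, and DESeq2 called 0. This difference had an unadjusted p under 0.05 in edgeR at 109 regions, against 4360 of all 139815. With the clone block it was called at 2 regions, both lower in ALX1FV ALX4- (0.0692%, against 0.0107% of all regions). These were the YAP1 region (difference of log2 fold changes -1.19, edgeR adjusted p = 0.02683), which had 48.14 and 55.66 CPM at 0 h and 42.37 and 50.48 at 24 h in ALX1FV, and the LAMA3 region (-1.11, adjusted p = 0.02574).

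**Figure D5:**
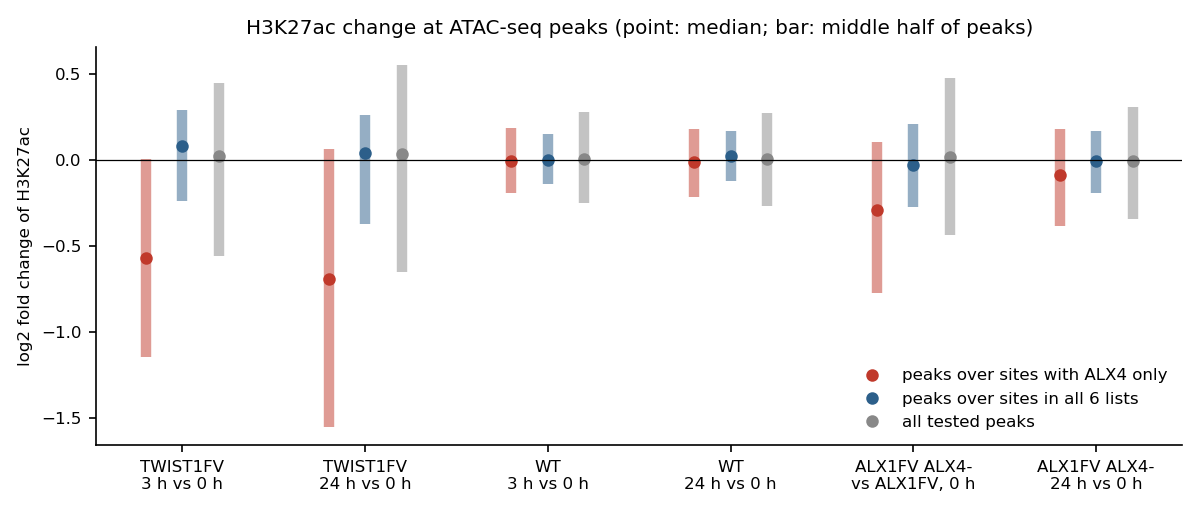
Median log2 fold change of H3K27ac (points) and the range of the central part of the regions, lower to upper quartile (bars), for regions over ALX4-only sites, over sites in all 6 lists and for all tested regions, in each contrast. Regions over ALX4-only sites have medians of -0.57 and -0.69 after TWIST1 degradation and -0.29 in ALX1FV ALX4- against ALX1FV.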

How the data were processed

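Peak lists were made per library and deposited by the authors with a fold enrichment ratio and −log10 p and q values for each peak; no pooled list was used. The submitters' processing notes name Bowtie2 2.4.1, SAMtools 1.10, MACS2 2.2.7.1 and deepTools 3.5.0, without a role. Coordinates are hg38, per the labels; the H3K27ac libraries and most hCNCC TWIST1 libraries were aligned to hg38 and mm39 together, and mouse chromatin had been added to those of TWIST1FV and WT. The peak threshold, the control used for each list and the handling of reads that align to several places are details not given in the sources used here. The H3K27ac tables hold the authors' counts per ATAC-seq region. Among counts of 20 or more, at least 76.7% were even in every library, so fragments may have been counted by both reads.

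Of 200 samples, 65 human peak lists and 4 count tables were used, and mouse samples were left out. The 65 include 0 h V5 lists of the PRRX1FV and MSX1FNV degradation lines, whose values are not reported here. H3K27ac counts of those lines were left out. Overlap was at least 1 bp. Start sites and gene parts came from GENCODE v44. Counts were tested with edgeR 4.0.16 in R 4.3.3 (filterByExpr, TMM, quasi-likelihood test, Benjamini-Hochberg) and with DESeq2 1.42.0 as an alternative, after a check on simulated data. Single values were tested by exact permutation (numpy 2.4.6), and Wilson intervals came from scipy 1.17.1. Mouse spike-in counts were not used for scaling. Correlations of same-numbered TWIST1FV libraries across regions were 0.121, 0.0905 and 0.161, and their numbers were not taken as pairs. Such values cannot settle pairing, since those of ALX1FV ALX4- were lower although a number there marks a clone. In ALX1FV (0.218, 0.21 and 0.215) and ALX1FV ALX4- (0.0382, 0.0285 and 0.0264) a number marks a clone per the labels, and the 24 h changes were also fitted with clone as a block.

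Sites, gene lists and tests were chosen with earlier results of these data known. Named were the 10 highest sites by lowest −log10 q over the 3 lists with ALX4, the 10 highest with the composite motif, the 2 highest per gene list, the 5 in most lists with ALX4 and fewest without, the 3 largest H3K27ac changes per contrast and direction, the 2 weakest sites, the 2 strongest near misses and the 5 genes with most sites. Some items that these rules select are not reported here.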

Additional observations from a re-analysis of the deposited data

Results flagged for a closer look

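The H3K27ac response of regions over ALX4-only sites differed between TWIST1FV and WT cells by a direct test of the difference in edgeR. At 3 h the change was lower in TWIST1FV at 391 of 3022 regions (12.9%, against 2.66% of all regions) and higher at 8 (0.265%, against 0.363%). At 24 h it was lower at 678 (22.4%, against 5.95%) and higher at 34 (1.13%, against 1.58%), so the shares that were higher lay below those of all regions.

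NEUROD1L was the variant whose occupancy of ALX4-only sites moved against the others when ALX4 was added, by -3.21 percentage points, with 1 library on each side. Its lists held 26878 peaks without and 8559 with ALX4, and its share of shared sites changed by -24.6 points. With both lists cut to 8559 peaks the change at ALX4-only sites was 2.72 points, in the direction of the other variants. At shared sites the same cut gave a larger change, 10.2 points. The difference between NEUROD1L and the other variants was not tested.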

How the results depend on the processing

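Starting from the other 2 lists with ALX4 gave 5537 and 5454 sites, reciprocal overlap of at least 50% gave 3974 and a 500 bp margin 5047. A −log10 q of at least 5 left 3040, and leaving out 1 list gave 5667 to 11775 (11775 without ALX4 replicate 1, 8028 without replicate 2). The composite share was 1.126% in windows of 50 bp either side, 2.496% with 200 bp, 3.45% with TAAT alone as homeodomain site, 2.47% at a −log10 q of at least 5 and 1.495% to 1.947% without 1 list. The mean change over variants was 14.8 points with pairs cut to the shorter list (exact permutation p = 0.0002441, the smallest 13 sign flips can give) and 1.21 for the 2000 strongest peaks; minus the change at shared sites it was 11.8 (p = 0.0872). The hCNCC difference ranged from -10.2 to -5.69 points without 1 library, kept its sign in every alternative run, and was -7.94 with the replicate block (exact p = 0.5).

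The replicate block raised the number of calls over all regions too. Of all 123361 tested regions in TWIST1FV it called 9176 lower and 4068 higher at 3 h, against 5795 and 1529 without it. At 24 h it called 14788 and 8505, against 11969 and 5545. For ALX1FV ALX4- against ALX1FV it called 3349 and 1453 of 139815, against 2591 and 1011. Over ALX4-only sites the replicate block called 766 of 2679 regions at 3 h and 1067 at 24 h in TWIST1FV. It called 308 of 2891 for ALX1FV ALX4- against ALX1FV. For ALX1FV ALX4- at 24 h it called 7, DESeq2 7 and the clone block 50. The clone block called 0 regions for ALX1FV at 24 h and 2 for the difference between the genotypes, against 0 and 0 without it. Without 1 library these counts ranged over 349 to 485, 714 to 796, 58 to 187 and 0 to 5; the fit with a lone library assumes that it varies like the others. Of 372 alternative values of 47 named results, 314 kept direction and side of the threshold, 51 lost it, 5 gained it and 2 reversed: without 1 library SOX9 at 3 h ranged from -0.63 to 0.10 (highest without TWIST1FV 3 h replicate 2) and ZNF608 from -0.93 to 0.29 (highest without TWIST1FV 0 h replicate 1). Peak lists without read counts limit any statement that a site was empty to the caller's threshold.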
